A study of Mus musculus with 192 samples.

Results

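The 6 genes described here are the growth factors Fgf2, Fgf1, Hgf and Egf and the fibroblast growth factor (FGF) receptors Fgfr1 and Fgfr2, read in single cells that reached a mouse skin wound from the blood of a joined donor. They were chosen by name from a panel of 96 TaqMan assays for 95 genes, and each has 1 assay. The cells came from dorsal wounds of EKO mice, which lack the chemokine Cxcl12 in their endothelium, and of WT mice, both sharing a circulation by parabiosis with a donor marked by green fluorescent protein (GFP). All cells were sorted as lineage-negative and GFP-positive, so the genotype is that of the recipient and not of the cell, and the labels call them recruited progenitors. The sources used here give no promoter for the endothelial deletion, no antigens for the lineage gate, no day after wounding, no age and no number of animals.

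Single-cell quantitative PCR gave a cycle threshold (Ct) per gene and cell for 96 EKO and 96 WT cells, in 2 sets, A and B, of 48 cells per genotype each. A lower Ct is a higher level, each cycle being about a doubling, and any Ct below 40 was taken as detection. Cells with 10 or more detected assays were kept, 77 EKO and 93 WT. The kept cells detected between 10 and 70 assays, with a median of 34 in EKO and 21 in WT cells. The 22 cells left out, 19 EKO and 3 WT, detected 0 of the 6 genes. The labels name no animals. Each genotype is therefore 1 sample, no difference was tested, and the exact (Clopper-Pearson) 95% intervals given with shares cover counting error only. Within each set EKO cells carry the numbers 49 to 96 and WT cells 1 to 48. The labels do not say whether the numbers follow a place in a run. If they do, genotype and place cannot be told apart.

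FGF ligands bind receptor tyrosine kinases on the cell surface with the help of heparan sulphate, and the receptors pass the signal on through kinases inside the cell, phosphoinositide 3-kinase among them. Fgf2 (basic FGF) and Fgf1 (acidic FGF) lack a classical secretion signal, and Fgf2 is known in wounds for driving fibroblast and endothelial growth. Fgfr1 is the FGF receptor typical of mesenchymal cells. Fgfr2 is made as splice forms that differ between epithelium and mesenchyme, which the labels do not tell apart for the assay used. Hgf, a ligand made by stromal cells, acts through the receptor Met, and Egf acts through Egfr, mostly on epithelium. The panel measured neither Met nor Egfr, so the receptor side is described for FGF alone.

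Cells were described in 3 groups that do not overlap. The 46 collagen-high cells (21 EKO, 25 WT) had a Col1a1 Ct below 16. The Ptprc class held the other 71 cells (36 EKO, 35 WT) in which Ptprc, the leukocyte gene for CD45, was detected, and 53 cells (20 EKO, 33 WT) fell in neither. The Col1a1 limit lay in a gap: the last cell inside stood at a Ct of 14.3 and the first outside at 17. Collagen-high cells detected a median of 6 of the 7 measured mesenchymal markers (range 4 to 7). The Ptprc class had 2 (0 to 4) and neither 1 (0 to 4). Col1a1, which sets the collagen-high class, is among the 7. Pdgfra, a receptor of connective tissue cells, was detected in 100% of collagen-high cells and in 2.82% of the Ptprc class. The median was 1 of 6 endothelial markers in collagen-high cells and 0 in the other classes. It was 2 of 6 haematopoietic markers in collagen-high and Ptprc-class cells. Ptprc, which sets the Ptprc class, is among these 6. Tie1 and the macrophage gene Adgre1 were at 0 in collagen-high cells. Of these lists, Pecam1 (43.5% and 32.4%), Kdr (28.3% and 8.45%), Tek (32.6% and 5.63%) and Ccr2 (43.5% and 29.6%) were more often detected in collagen-high than in Ptprc-class cells. Cd48 (47.8% and 59.2%), Kit (8.70% and 29.6%) and Itgam (2.17% and 14.1%) were less often detected in collagen-high cells. So were Cdh5 (4.35% and 8.45%) and Flt1 (6.52% and 9.86%). The part of these genes in the class comparisons was not tested. Ptprc was also detected in 31 of the 46 collagen-high cells, and whether a column holds more than 1 cell was not tested. Collagen-high cells gave more signal throughout, with a median of 52 assays per cell against 28 in the Ptprc class and 15 in neither. Shares by class were therefore also computed among cells with at least 24 assays (46 collagen-high and 42 Ptprc-class cells, with 7 in neither).

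**Figure D1:**
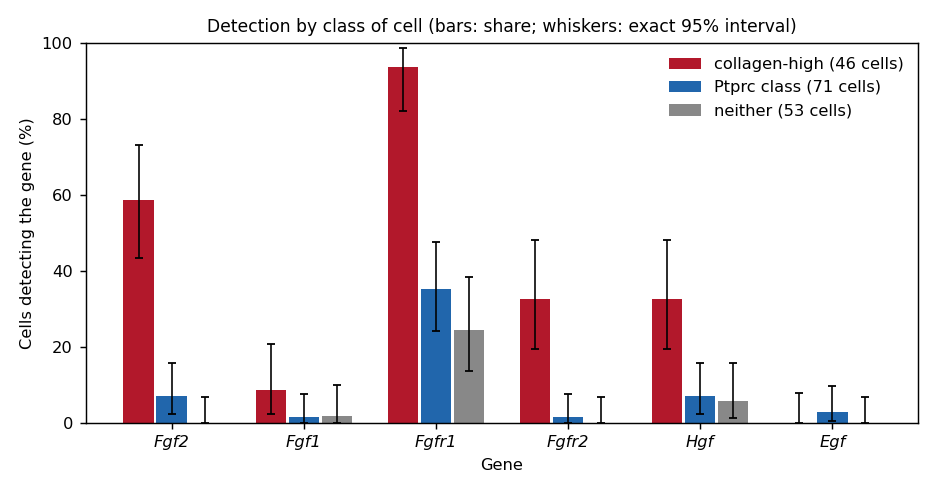
Share of cells that detected each gene, in percent on the vertical axis, in collagen-high cells (46), the Ptprc class (71) and cells in neither (53), with exact 95% intervals. Fgfr1 reached 93.5% of collagen-high cells and Fgf2 58.7%, and both stand above the other classes with no overlap of intervals.

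Most cells with Fgf2 were collagen-high: 27 of the 32 that detected it (84.4%) belonged to that class. It was detected in 27 of 46 collagen-high cells (58.7%, 95% interval 43.2 to 73%), in 5 of 71 cells of the Ptprc class (7.04%, 2.33 to 15.7%) and in 0 of 53 cells in neither (upper limit 5.66%, from 3 counts). Collagen-high minus Ptprc-class cells gave 51.8 percentage points (set A) and 50.5 (set B). Among cells with at least 24 assays the shares were 58.7% and 9.52%. Within the Ptprc class, Fgf2 was detected in 3 of 31 cells with a late Col1a1 signal, at a Ct of 16 or later, and in 2 of 40 without Col1a1.

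The Fgf2 level varied among the cells that detected it. In collagen-high cells the Ct ran between 14.96 and 27.8, with a median of 19.1 ± 2.49 (SD over 27 cells). The late end was 1 EKO cell of set B, and the next latest value was 23.8. The 5 Ptprc-class cells lay between 17.2 and 21.7 with a median of 20.8, inside the range of the collagen-high cells. The difference of the medians was -1.77 cycles, and 0.28 once each Ct was taken against the median Ct of its own cell. The Fgf2 Ct of collagen-high cells showed almost no relation to the number of assays they detected (Pearson's r = -0.05, Spearman's rho = -0.05 over 27 cells that share chips, given as a description), while Fgfr1 came up earlier in cells with more assays (r = -0.56, rho = -0.53 over 43 cells).

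Fgf1, the other ligand, was rare. It was detected in 6 of the 170 kept cells (3.53%, 1.31 to 7.52%). Its Ct was 20.6 in 1 EKO and 17.6, 18.5 and 19.3 in 3 WT collagen-high cells. The Ptprc class had 1 such cell, an EKO cell at 17.3 that detected 70 assays, the most of any kept cell. The sixth, a WT cell in neither class, stood apart at a Ct of 30.8 with 18 assays detected. The shares of collagen-high and Ptprc-class cells, 8.70% (2.42 to 20.8%) and 1.41% (0.04 to 7.6%), had overlapping intervals.

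Fgfr1 was the most widely detected of the 6 genes, in 81 of 170 kept cells (47.6%, 39.9 to 55.4%). It was detected in 43 of 46 collagen-high cells (93.5%, 82.1 to 98.6%), in 25 of 71 cells of the Ptprc class (35.2%, 24.2 to 47.5%) and in 13 of 53 in neither (24.5%, 13.8 to 38.3%). Collagen-high minus Ptprc-class cells gave 55.6 points (set A) and 61.2 (set B). Within the Ptprc class, genotypes pooled, Fgfr1 was detected in 34.5% of 29 cells under 24 assays and 35.7% of 42 with 24 or more. EKO cells had it in 12.5% of 8 and 32.1% of 28, and WT cells in 42.9% of 21 and 42.9% of 14. Each of the other 5 genes was detected in at most 5 of the 71 Ptprc-class cells.

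The median Fgfr1 level also differed between the classes. Its Ct in collagen-high cells ran between 14.4 and 22 with a median of 17 ± 1.81 (SD, 43 cells). In the Ptprc class it ran between 15.6 and 24.8 with a median of 20.6 ± 1.62 (25 cells), and in neither between 18.6 and 22.2 with a median of 21.2 ± 0.93 (13 cells). The ranges overlap, and 4 collagen-high cells lay later than a Ct of 21, among the Ptprc-class values. With at least 24 assays per cell the medians were 17 in collagen-high and 20.4 in Ptprc-class cells. The median of collagen-high minus that of Ptprc-class cells was -3.61 cycles (set A -3.61, set B -3.21), so Fgfr1 came up earlier in collagen-high cells, and -1.29 cycles once each Ct was taken against its own cell's median. Of the 32 assays with enough cells for this comparison, Fgfr1 included, a rule of 1 cycle or more and 1 sign over both sets was met by 62.5% (56.2% earlier and 6.25% later in collagen-high cells), with a median of -1.31 cycles over the 32. Fgfr1 was the only one of the 6 genes with enough cells.

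**Figure D2:**
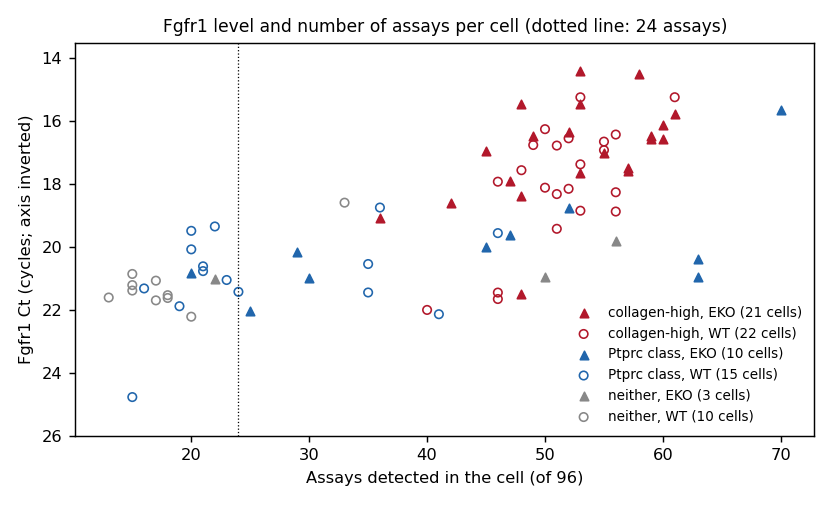
Fgfr1 Ct of the 81 detecting cells (vertical axis, inverted so that higher levels are at the top) against the number of assays detected in the same cell, by class and genotype. Collagen-high cells lie at 36 assays or more and mostly at an earlier Ct than the rest, and the WT cells of the other classes gather under 24 assays near a Ct of 21.

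Fgfr2 was nearly limited to the collagen-high class. It was detected in 15 of 46 collagen-high cells (32.6%, 19.5 to 48%), in 1 of 71 Ptprc-class cells (1.41%, 0.04 to 7.6%) and in 0 of 53 in neither. With at least 24 assays per cell the Fgfr2 shares were 32.6% and 2.38%. Its Ct in collagen-high cells ran between 16.5 and 26.5 with a median of 21.9 ± 2.45 (SD, 15 cells), and the lone Ptprc-class cell, an EKO cell of set B, stood at 20.1. Of the 16 cells that detected Fgfr2, 15 also detected Fgfr1.

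Hgf was detected in 15 of 46 collagen-high cells (32.6%, 19.5 to 48%), in 5 of 71 Ptprc-class cells (7.04%, 2.33 to 15.7%) and in 3 of 53 in neither (5.66%, 1.18 to 15.7%). With at least 24 assays per cell the Hgf shares were 32.6% and 9.52% in the first 2 classes. Its Ct ran between 18.8 and 24.1 in collagen-high cells (median 21.9 ± 1.73, 15 cells), between 19.2 and 24.7 in the Ptprc class (median 23.2, 5 cells) and between 23.6 and 24 in neither. The 3 ranges overlap. Egf was detected in 0 of 46 collagen-high cells (upper limit 6.52%) and in 2 cells of the Ptprc class, 1 EKO cell at a Ct of 19.95 and 1 WT cell at 19.8, both of set B.

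**Figure D3:**
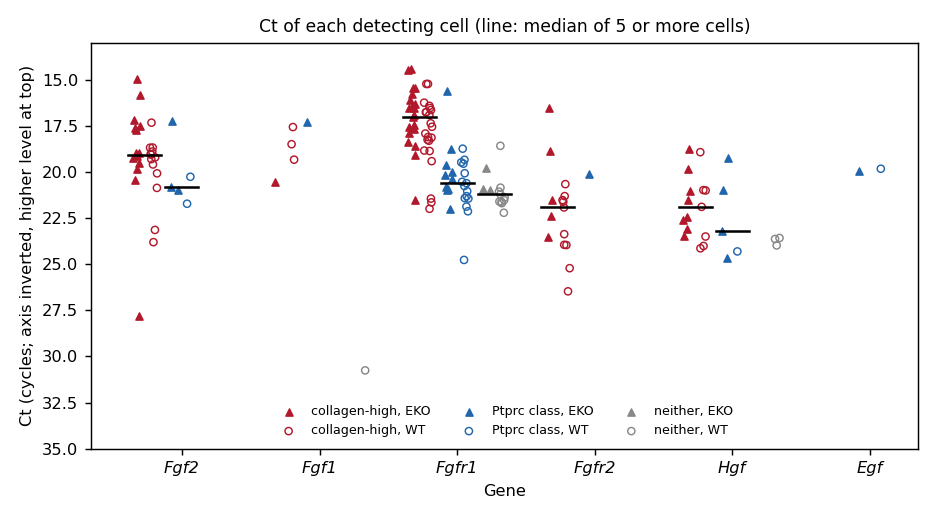
Ct of every cell that detected each gene (vertical axis in cycles, inverted), with EKO cells as filled triangles and WT cells as open circles, coloured by class, and a line at the median of 5 or more cells. The Fgfr1 median of collagen-high cells (17) stands above that of the Ptprc class (20.6), and values of the classes overlap for Fgfr1, Fgf2 and Hgf.

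Shares were called different at 10 points or more with 1 sign over both sets. By this rule 4 of the 6 genes (Fgf2, Fgfr1, Fgfr2 and Hgf) were higher in collagen-high than in Ptprc-class cells. Of 94 assays, leaving out Col1a1 and Ptprc, which set the classes, 62.8% met it (55.3% higher, 7.45% lower), so the count is near the background of the panel. Among cells with at least 24 assays it was again 4 of 6, and 57.4% of the assays met it (44.7% higher, 12.8% lower). By size, Fgfr1 stood 15th from the highest of the 94 and Fgf2 20th, and 10th and 14th among cells with at least 24 assays. The median difference over the 94 assays was 15.4 points, and 6.73 among cells with at least 24 assays.

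Other growth factor genes of the panel are read against the same 55.3% of assays that were higher in collagen-high cells. Of the 9 measured ligands on a separate list, 7 had a higher share in collagen-high cells (list median 33.6 points), among them Igf1 (67.4% against 5.63% in the Ptprc class), Vegfa (95.7% and 36.6%) and Tgfb3 (76.1% and 11.3%), while Pdgfb (13% and 16.9%) and Angpt2 (6.52% and 5.63%) did not meet the rule. With at least 24 assays 6 of the 9 were higher and Pdgfb was lower (13% and 28.6%), beside 44.7% and 12.8% of the assays. Of 8 other receptor tyrosine kinases (list median 23.4 points), 5 were higher, a share near that of the panel, including Pdgfrb (41.3% and 2.82%) and Igf1r (78.3% and 21.1%). Kit, the stem cell factor receptor, was lower (8.70% and 29.6%). The FGF signal mediators and targets Myc, Ccnd1 and Pik3r1 were each higher in collagen-high cells. With at least 24 assays Myc (93.5% and 50%) and Ccnd1 (37% and 23.8%) remained so, and Pik3r1 (87% and 97.6%) was lower.

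Ligand and receptor were found in the same cell mainly in the collagen-high class. At least 1 FGF ligand and at least 1 FGF receptor were detected in 28 of 46 collagen-high cells (60.9%, 45.4 to 74.9%), with 14 of 23 in each set. In the Ptprc class 3 of 71 cells did so (4.23%, 0.88 to 11.9%), and in neither 0 of 53. With at least 24 assays per cell the shares were 60.9% of collagen-high and 7.14% of 42 Ptprc-class cells. The 3 Ptprc-class cells were EKO cells that detected 70, 47 and 45 assays, and the 0 of 35 WT cells allow a share of up to 8.57%. A receptor without a ligand was found in 34.8% of collagen-high, 31% of Ptprc-class and 24.5% of other cells. A ligand without a receptor was found in 1, 3 and 1 cells of these classes.

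Of the 46 collagen-high cells, 46 detected at least 1 of the 6 genes, 34 at least 2 and 19 at least 3. Fgfr1 alone was found in 10 of them, Fgf2 with Fgfr1 in 9, these with Hgf in 7 (6 EKO, 1 WT) and Fgf2 with both receptors in 5. In the Ptprc class 39 of 71 cells detected 0 of the 6 genes, and 21 detected Fgfr1 alone (6 EKO, 15 WT).

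**Figure D4:**
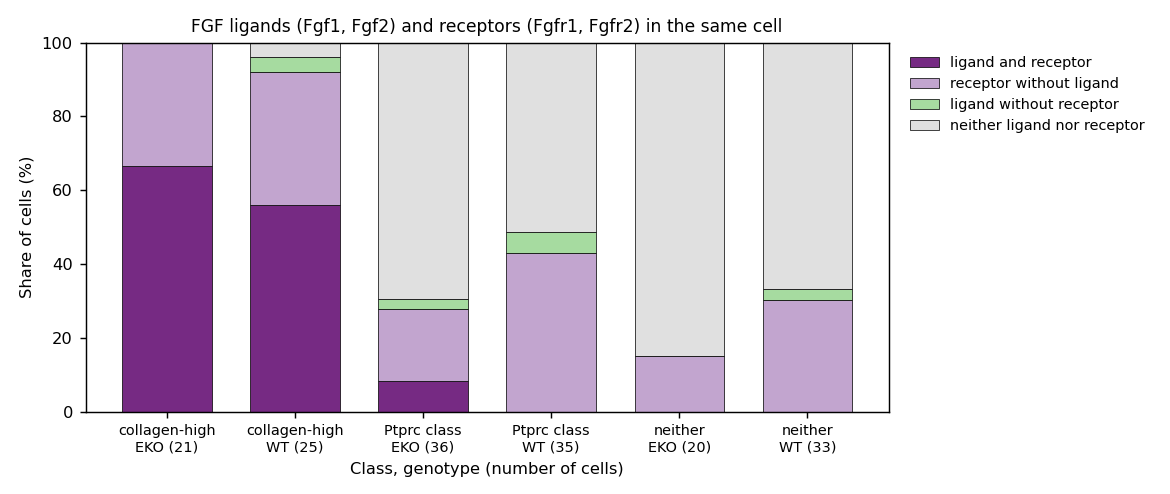
Share of cells, in percent, that detected an FGF ligand (Fgf1 or Fgf2) and a receptor (Fgfr1 or Fgfr2), 1 of these or neither, by class and genotype, with the number of cells in brackets. Both are found together in 66.7% of EKO and 56% of WT collagen-high cells, and in 8.33% of EKO and 0% of WT Ptprc-class cells.

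Within the collagen-high class, cells with and without Fgf2 had Fgfr1, Fgfr2 and Hgf at shares whose intervals overlapped. Fgfr1 was detected in 26 of 27 collagen-high cells with Fgf2 (96.3%, 81 to 99.9%) and in 17 of 19 without it (89.5%, 66.9 to 98.7%). Fgfr2 was detected in 33.3% and 31.6% of these cells, and Hgf in 37% and 26.3%. Over all kept cells the same comparison gave Fgfr1 in 87.5% of cells with Fgf2 and in 38.4% without, with medians of 51.5 and 21 assays per cell. In the 28 cells that detected both, the Ct values of Fgf2 and Fgfr1 had Pearson's r = 0.41 and Spearman's rho = 0.47, a description over cells that share chips and differ in yield. Of the 4 collagen-high cells with Fgf1, 3 detected Fgfr2 (75%, 19.4 to 99.4%), against 12 of the 42 without it (28.6%, 15.7 to 44.6%). These intervals overlapped.

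Collagen-high cells with and without Ptprc differed most, among the 6 genes, in Fgfr2. It was detected in 8 of 15 collagen-high cells without Ptprc (53.3%, 26.6 to 78.7%) and in 7 of 31 with it (22.6%, 9.59 to 41.1%). Set A had a difference of 55 points and set B one of 3.57, with overlapping intervals. Fgf2 was detected in 53.3% and 61.3% of these cells, Fgfr1 in 86.7% and 96.8%, and Hgf in 40% and 29%. Fgf1 was found in 20% and 3.23%, with opposite signs in the sets. Of the 6 genes, Fgfr2 and Hgf met the rule on shares as higher and Fgfr1 as lower in cells without Ptprc. The rule was met here by 24.5% of 94 assays, 8.51% higher and 16% lower in cells without Ptprc.

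Likeness of detection over the 170 kept cells was measured by the phi coefficient, which is 1 where the same cells detect both genes. The assays most like Fgf2 were Timp1, a metalloproteinase inhibitor (phi 0.57), Pdgfra (0.56) and Ackr3, a scavenging chemokine receptor (0.54). For Fgfr1 they were Timp1 (0.54), Ackr3 (0.52) and Cd34 (0.52), and for Fgfr2 Tgfb3 (0.51), Pdgfrb (0.46) and Timp1 (0.44). Hgf was less closely matched, by Vcam1 (0.36), Pdgfra (0.33) and Timp1 (0.33). Within the 46 collagen-high cells the phi of Fgf2 was -0.13 with Timp1 and 0.25 with Ackr3. That of Fgfr1 ran between -0.09 and -0.04 with its 3 assays, and that of Fgfr2 was 0.28 with Tgfb3, 0.26 with Pdgfrb and 0.10 with Timp1. Hgf had 0.20 with Vcam1 and 0.10 with Timp1, and Pdgfra was detected in all of these cells and has no phi. These coefficients describe cells that share chips and differ in yield.

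EKO and WT cells were compared as found in wounds of recipients without and with endothelial Cxcl12, and recruitment itself was not tested. Over all kept cells 0 of the 6 genes met the rule on shares, which 20.8% of the 96 assays met, 20 higher and 0 lower in EKO. Among cells with at least 24 assays Fgfr2 met it (11.3% of EKO and 23.8% of WT cells), as did 15.6% of the assays, 4.17% higher and 11.5% lower. For Fgf2, 17 of 77 EKO cells (22.1%, 13.4 to 33%) stood against 15 of 93 WT cells (16.1%, 9.32 to 25.2%), a difference of -3.37 points for set A and 15.6 for set B. Hgf had 15.6% of EKO and 11.8% of WT cells (set A -3.85, set B 11.8 points). Fgfr2 had 7.79% and 10.8% (set A -9.46, set B 3.86 points). The sign thus differed between the sets for each of the 3 genes. Fgf1 (2.60% and 4.30%) and Egf (1.30% and 1.08%) rested on 6 and 2 cells.

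Fgfr1 was less often detected in EKO than in WT cells in set A and more often in set B. The 34 EKO cells with Fgfr1 made up 44.2% (32.8 to 55.9%) of 77, and the 47 WT cells 50.5% (39.97 to 61.1%) of 93. Set A had 38.5% of EKO against 58.3% of WT cells, and set B 50% against 42.2%. Its difference of -6.38 points ranked 94th of the 96 assays from the highest, whose median was 5.70. The share of collagen-high cells moved the same way between the sets: 17.9% of EKO and 33.3% of WT cells in set A, and 36.8% and 20% in set B. Its part in the result was not tested, and each class was also compared alone.

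Among collagen-high cells, EKO cells had Fgfr1 and Fgf2 more often and Fgfr2 less often, with few cells behind each value. Fgfr1 was detected in 21 of 21 EKO (100%, 83.9 to 100%) and 22 of 25 WT collagen-high cells (88%, 68.8 to 97.5%). Fgf2 was detected in 14 of 21 (66.7%, 43 to 85.4%) and 13 of 25 (52%, 31.3 to 72.2%), and Fgfr2 in 5 of 21 (23.8%, 8.22 to 47.2%) and 10 of 25 (40%, 21.1 to 61.3%). These differences of 12, 14.7 and -16.2 points met the rule on shares, while the exact intervals of EKO and WT cells overlapped for all 3. Of 95 assays 21.1% met it here (12.6% higher, 8.42% lower in EKO). Hgf, with 38.1% and 28%, changed sign between the sets (set A -2.68, set B 20.6 points).

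Outside the collagen-high class the direction of Fgfr1 was the opposite. In the Ptprc class 10 of 36 EKO cells had it (27.8%, 14.2 to 45.2%), against 15 of 35 WT cells (42.9%, 26.3 to 60.6%), a difference of -17.7 points for set A and -11.4 for set B. The intervals overlapped. This was the lowest of the 94 assays ranked, of which 38.3% met the rule on shares (36.2% higher, 2.13% lower in EKO). The EKO cells of this class detected more of the panel than the WT cells, with medians of 30.5 and 21 assays. Among the Ptprc-class cells with at least 24 assays Fgfr1 was found in 32.1% of EKO and 42.9% of WT cells (set A -4.17, set B -19.2 points), and 23.4% of the assays met the rule (13.8% higher, 9.57% lower). Hgf met it there too, in 4 of 28 EKO cells (14.3%) and 0 of 14 WT cells. The largest gap lay in cells of low yield: of the cells that were not collagen-high and detected fewer than 24 assays, Fgfr1 was found in 2 of 24 from EKO (8.33%, 1.03 to 27%) and in 18 of 51 from WT (35.3%, 22.4 to 49.9%), with medians of 16.5 and 17 assays. Set A had 7.14% of EKO against 45.8% of WT cells there, and set B 10% against 25.9%. This low-yield split was chosen after the values were seen, and no share over the panel is given for it. Its lower edge is the filter of 10 assays, which left out 19 EKO and 3 WT cells. Fgf2, Fgf1, Fgfr2, Hgf and Egf were each detected in 5 or fewer cells of the Ptprc class, too few to compare levels.

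**Figure D5:**
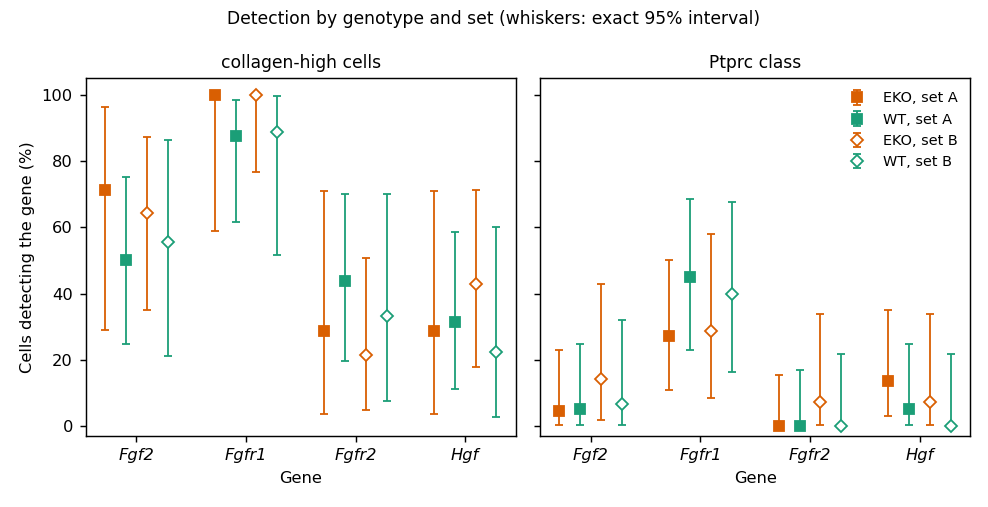
Share of cells that detected 4 of the genes, in percent with exact 95% intervals, in collagen-high cells (left) and the Ptprc class (right), for EKO (orange) and WT (green) cells of set A (filled squares) and set B (open diamonds). Fgfr1 is at 100% in EKO collagen-high cells of both sets and at 27.3% and 28.6% in EKO Ptprc-class cells, against 45% and 40% in WT Ptprc-class cells of sets A and B.

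Of the FGF signal mediators and targets, Pik3r1 (66.2% of EKO and 40.9% of WT cells) and Myc (50.6% and 34.4%) met the rule on shares as higher in EKO, and Ccnd1 (22.1% and 15.1%) did not, in kept cells with medians of 34 and 21 assays. Over all 96 assays 20.8% met the rule (20 higher and 0 lower in EKO), and the median difference was 5.70 points. Among cells with at least 24 assays 4.17% of the assays were higher and 11.5% lower in EKO. The genotype shares of these listed genes in such cells are not given. Of the 9 other ligands 0 met the rule, and of the 8 other receptor tyrosine kinases 1 did, the insulin-like growth factor receptor Igf1r (42.9% and 25.8%).

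Of the 6 genes, Fgfr1 alone had enough detecting cells per genotype and set for the rule on levels. Its Ct ran between 14.4 and 22 in EKO cells (median 17.8 ± 2.20, 34 cells) and between 15.2 and 24.8 in WT cells (median 19.6 ± 2.20, 47 cells). EKO minus WT was -1.77 cycles (set A -1.92, set B -1.22), an earlier median in EKO, and the ranges overlapped. Of 47 assays with enough cells 46.8% met the rule on levels, 38.3% earlier and 8.51% later in EKO, and the median over the 47 was -0.84 cycles. Among collagen-high cells the Fgfr1 medians were 16.6 in EKO and 17.7 in WT cells, with -1.09 cycles in each set. Against each cell's own median these collagen-high values were -0.18 in EKO and 0 in WT cells. In the Ptprc class the Fgfr1 median Ct was 20.3 in EKO and 20.8 in WT cells. Of the cells that detected Fgfr1, 61.8% of EKO and 46.8% of WT cells were collagen-high. Against each cell's own median the difference over all kept cells was -0.82 cycles, against its reference genes -0.46, and among cells with at least 24 assays -0.64, so the rule was not met under any of these 3 settings.

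The other genes had too few detecting cells for the rule on levels, and their medians are given as values. Over all kept cells Hgf stood at a median Ct of 21.98 in 12 EKO and 23.6 in 11 WT cells (set A -1.11, set B -2.10 cycles). Fgfr2 stood at 20.8 in 6 EKO and 22.7 in 10 WT cells (set A -1.02, set B -2.04 cycles). Both medians were thus earlier in EKO cells in each set, with few cells behind them. For Hgf there were 5 EKO and 8 WT cells in set A, and 7 and 3 in set B. For Fgfr2 there were 2 EKO and 7 WT cells in set A, and 4 and 3 in set B. Among collagen-high cells Fgf2 stood at 19 in 14 EKO and 19.2 in 13 WT cells, with SDs of 2.99 and 1.82. The EKO SD includes the 1 cell at a Ct of 27.8. Fgfr2 stood at 21.5 in 5 EKO and 22.7 in 10 WT collagen-high cells, with SDs of 2.82 and 1.90. Hgf stood at 22 in 8 EKO and 21.9 in 7 WT collagen-high cells (set A 1.52, set B -1.67 cycles).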

How the data were processed

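The authors deposited 1 table of 96 assays by 192 cells. Its values carry no unit and were entered as a score: they were read as raw Ct, since none exceeds 40 and 69.7% of the 18432 reactions stand at exactly 40, and per the labels' protocols sorted cells were read on chips with the FAM dye. The sources used here name no instrument software, threshold or preamplification. Groups came from the labelled genotype and sets from the letter of each cell's title. Of the columns of values 0 were unused, and 0 pairs of cells were identical.

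Shares were computed over cells with at least 10 of 96 assays, with exact 95% intervals. Where no cell detected a gene, the upper limit is 3 counts over the cells. Levels are medians of raw Ct over detecting cells. A difference met the rule on shares at 10 points or more overall with the same sign in both sets, and the rule on levels at 1 cycle or more with at least 10 detecting cells per group and set. The members, classes and lists were chosen with earlier results of these data known. All 6 genes are named, the gene lists are given by their measured members (1 gene of the FGF mediators is not reported here), and for each gene in at least 10 cells the 3 assays of highest phi are named, leaving out reference genes, Col1a1 and assays in over 90% of cells. Alternatives covered detection at a Ct below 35, 30 or 28, no filter or 24 assays per cell, each set alone, Col1a1 limits of 14 and 18, every Ptprc-detecting cell, normalised Ct and the mean, and collagen-high cells without Ptprc (chosen after seeing the data). Shares and levels were checked against simulated cells with known differences. These cells were drawn without the differences in yield and class of the real cells, so this checked the computation alone. The number of cells limits the precision. Versions were SciPy 1.17.1, pandas 2.3.3, NumPy 2.4.6 and Python 3.11.15.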

Additional observations from a re-analysis of the deposited data

Results flagged for a closer look

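The Fgf1 Ct of 30.8 in 1 WT cell of set B lay far from the other 3 WT cells that detected Fgf1, which stood between 17.6 and 19.3. Its gap to the nearest of them was 0.87 of the whole range, above the 0.829 that Dixon's rule allows for 4 values. The cell detected 18 assays and belonged to neither class. With a Ct limit of 30 or lower it counts as not detecting Fgf1. In all, 11 groups of 4 to 10 detecting cells were examined for the 6 genes, and chance flags about 1 in 20.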

How the results depend on the processing

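The counts of genes that met the rules, the 2 co-detection shares and each gene's differences and levels were recomputed under the alternatives. No difference of the 6 genes that met a rule changed its direction under any of them, while Pik3r1, a gene of the mediator list, was higher in collagen-high cells by 27.8 points and lower (-10.7) with at least 24 assays. Of the values for single genes among the 6, 217 stayed within their interval or SD and 3 did not. Of the counts and co-detection shares, 31 stayed alike and 5 moved. Several alternatives could change little, and intervals from few cells are wide, so these tallies are no measure of robustness. Only 1 detection of the 6 genes lay at a Ct of 28 or later. The Col1a1 limit lay in a gap between 14.3 and 17, and the cells left out detected 0 of the 6 genes. Among cells with at least 24 assays, 1 gene in place of 0 met the share rule between EKO and WT: Fgfr2, at -12.5 points. The count of genes that met the rule on levels, 1 (Fgfr1), was 0 among cells with at least 24 assays (-0.64 cycles), 0 against the reference genes and 0 against the cell's own median. With every Ptprc-detecting cell, collagen-high ones included, the share with an FGF ligand and receptor was 20.6% in place of 4.23%, and Fgfr1 differed by 39.6 points between collagen-high and Ptprc-detecting cells. With collagen-high cells that lack Ptprc, Fgfr2 differed by 51.9 points. No paired analysis was possible because each genotype is 1 sample and no label links an EKO cell to a WT cell. Fgf1 and Egf rest on 6 and 2 detecting cells. Differences by genotype within a class rest on 7 to 22 cells per genotype and set, and in the Ptprc class with at least 24 assays on 6 WT cells of set B.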
